A study of Mus musculus with 60 samples.

Results

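Axon guidance ligands and receptors are the secreted or membrane-bound cues, and the surface proteins that read them, by which a growing axon is steered and by which a mature neuron adjusts its spines and synapses. The genes described here are the Eph receptors and their ephrin ligands, the semaphorins with their plexin and neuropilin receptors, the Slits with their Robo receptors, and the netrins with *Dcc* and the Unc5 receptors. They were chosen by gene symbol alone: 67 protein-coding genes carried one of these names among 46480 genes in the count tables, of which 21534 were protein-coding. A gene was tested if it had more than 10 counts in at least 2 samples, as 17040 genes did, and 66 of the 67 guidance genes passed. The exception was *Epha1*, with at most 5 counts in any sample. *Ntn3* was not analysed here.

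Eph receptors are receptor tyrosine kinases that bind ephrins on a neighboring cell, and the ephrin itself can signal back into the cell that carries it. Semaphorins bind plexins, and the secreted class 3 semaphorins mostly need a neuropilin as co-receptor, while Slits bind Robos and are best known for repelling axons at the midline. In the adult dentate gyrus (DG), the entry field of the hippocampus, granule cells send mossy fibers to CA3 and receive entorhinal axons, and newborn granule cells go on growing axons and dendrites.

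The samples were whole-tissue punches of dorsal and ventral DG from male C57BL6J mice at 80 days of age. After weaning on day 22 the mice lived for 8 weeks in standard housing (SH, 3 mice per cage) or in an enriched environment (EE, 12 mice in a larger cage with running wheels, a bridge and objects changed weekly). Each sample was a pool of several mice, and each pool gave a dorsal and a ventral sample from the same animals. RNA-Seq of 4 SH pools and 5 EE pools, or 18 samples in 4 groups, is described here. The p-values rest on the spread among pooled samples within these groups, not among single mice. The main fit had no pool term, so it treated all 18 samples as independent and did not use the pairing of regions within pools. The SH pool numbered 3 was left out, because its samples held 34.3 CPM (dorsal) and 11.9 CPM (ventral) of *Xist*, which male cells do not normally transcribe, against at most 0.652 CPM in any other sample. Between 22919364 and 28301861 fragments per sample were counted on genes. Levels of a gene across samples are in CPM (counts scaled to library size, with TMM factors), and levels between genes are in TPM, which corrects for transcript length.

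Both tissues carried granule cell RNA, but the marker lists were not equal between them. Granule cell markers summed to between 983 and 1220 CPM in the dorsal samples and between 496 and 737 CPM in the ventral samples, and 5 of 6 were called higher in dorsal DG (*Prox1* by 0.94 ± 0.06 on the log2 scale). All 10 choroid plexus markers were higher in ventral DG, with sums of 27.2 to 217 CPM in dorsal and 400 to 1469 CPM in ventral samples. Of the habenula and thalamus markers, 2 of 6 tested were higher in dorsal DG (*Prkcd* and *Gpr151*), and the sums were 79.6 to 113 CPM in dorsal against 20.2 to 27.9 CPM in ventral samples, most of it *Prkcd* (73.4 to 100.3 and 13.1 to 18.9 CPM). Mossy cell markers summed to 24.7 to 39.7 CPM in dorsal and 64.6 to 109 CPM in ventral samples. Most of the ventral sum was *Calb2* (11.1 to 25.2 CPM in dorsal and 58.3 to 101 CPM in ventral samples), which is also on the immature neuron list. Of the 5 mossy cell markers, 1 was higher in dorsal (*Ttn*, 1.51 ± 0.07) and 2 in ventral DG (*Calb2* and the rare *Gal*). The immature neuron list had 5 of 6 genes called on the dorsal side, *Dcx* among them (0.54 ± 0.07), and 1 on the ventral side (*Calb2*). Of 6 CA pyramidal cell markers 2 were higher on each side. Of 6 interneuron markers 3 were higher in ventral DG (*Sst* by -0.93 ± 0.04, *Vip* by -0.91 ± 0.07 and *Pvalb* by -0.41 ± 0.06) and *Npy* in dorsal DG. Among the mural and meningeal markers 2 of 6 were higher in ventral DG (*Dcn* by -1.27 ± 0.10 and *Lum* by -0.51 ± 0.06), as were 1 of 5 astrocyte markers (*Slc1a3*) and 1 of 4 oligodendrocyte precursor markers (*Olig1*), whereas none of the 5 endothelial, 5 microglial or 6 oligodendrocyte markers was called in either direction. Their part in the differences below was not tested. In whole tissue, fewer cells of a type and less RNA per cell cannot be told apart.

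The adult DG transcribed most of these genes, and the EphA receptors led the list. A median level over 1 TPM was found for 51 of the 67 genes and over 10 TPM for 13. *Epha4*, a receptor that binds ephrins of both classes, was highest with a median of 52.9 TPM (18.9 to 98.7 across the 18 samples), followed by *Epha7* at 37.3 TPM (11.9 to 75.8). The ranges of these 2 receptors overlapped. Next came the repellent ligand *Slit1* at 21.7 TPM, the transmembrane semaphorin *Sema6b* at 16.3 TPM, *Epha6* at 16.2 TPM and the membrane-anchored *Sema7a* at 14.8 TPM, and neighbors in this order did not differ beyond their ranges.

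Other families were led by *Unc5a* (13.0 TPM) among the netrin receptors, *Nrp1* (12.7) among the neuropilins, *Plxna4* (12.6) among the plexins, *Ephb6* (11.6) among the EphB receptors and *Efnb3* (11.6) among the ephrin-B ligands. *Sema5a* (11.0) led class 5, *Robo2* (10.1) the Robos, *Efna3* (9.68) the ephrin-A ligands, *Sema3e* (4.78) the class 3 semaphorins and *Sema4f* (3.99) class 4. Leaders were taken over all 18 samples: by region, *Sema3c* (6.37 TPM) was highest of class 3 in dorsal DG and *Plxnb1* (8.38 TPM) of the plexins in ventral DG. The netrins were low, with *Ntn4* at 0.920 TPM and *Ntn1* at 0.755 TPM. Secreted class 3 semaphorins were mostly low as well, and 4 of 7 lay under 0.5 TPM: *Sema3d* at 0.465, *Sema3b* at 0.290, *Sema3a* at 0.200 and *Sema3f* at 0.200.

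**Figure D1:**
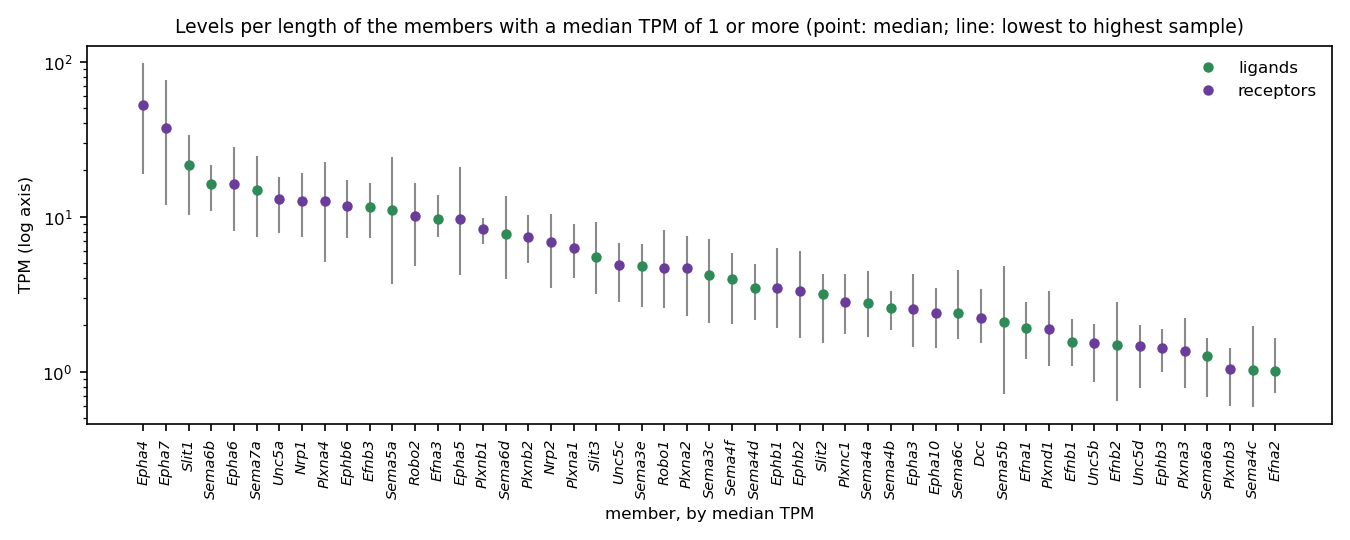
Levels per transcript length in TPM (log axis) of the guidance genes with a median of 1 TPM or more, ordered by median. Points are medians over the 18 samples, green for ligands and purple for receptors, and lines run from the lowest to the highest sample. *Epha4* and *Epha7* stand highest at 52.9 and 37.3 TPM, with ranges that overlap.

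The comparison of dorsal with ventral DG asks how the poles of one structure differ along its long axis. Over the mean of both housings, 37 of the 66 tested guidance genes (56.1%) were called, at FDR under 0.05 and a change over 20%, against 32.7% of all tested genes. Of these, 23 were higher in dorsal DG (15.9% of all tested genes were) and 14 in ventral DG (16.8% of all). Disregarding sign, the median log2 fold change was 0.29 for the guidance genes and 0.19 for all tested genes, and with sign the medians were 0.08 and -0.0046. A further 12 guidance genes had FDR under 0.05 with a smaller change. Receptors leaned to the dorsal side, with 13 of 33 tested called higher on that side and 4 ventrally, whereas ligands were even, with 10 of 33 on each side. Eph receptors made up 8 of the 13 dorsal-high receptors and 1 of the 4 ventral-high ones. In 26 guidance genes the 9 dorsal and 9 ventral CPM values did not overlap (18.9% of all tested genes), 19 with every dorsal sample higher and 7 with every ventral sample higher.

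**Figure D2:**
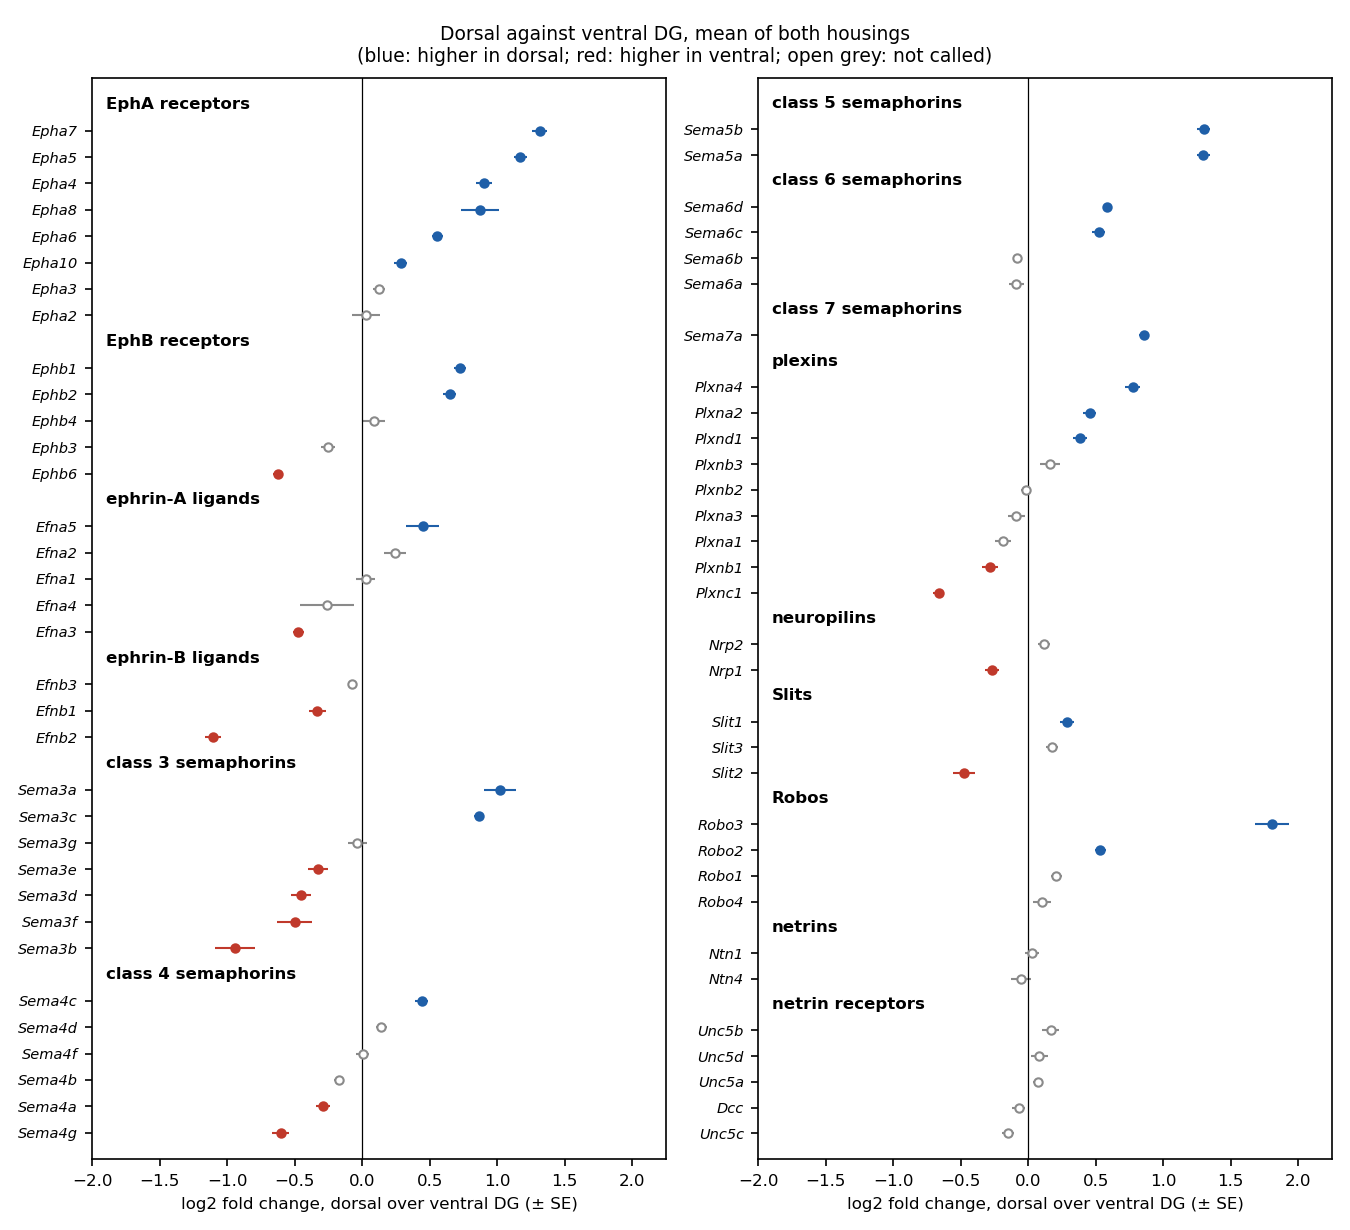
Log2 fold change of dorsal over ventral DG (mean of both housings, ± SE) for the 66 tested guidance genes, by family. Blue marks the 23 genes called higher in dorsal, red the 14 called higher in ventral, and open grey the 29 not called. All called EphA receptors lie on the dorsal side, both class 5 semaphorins are near 1.30, and no netrin or netrin receptor is colored.

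Upstream sequences are shown for the called genes with the largest difference in each direction that have a RefSeq entry, since DNA methylation was also studied in this tissue (not analysed here) and acts mainly on CpG sites. These are the 250 bases before the RefSeq transcription start, 5′ to 3′ along the gene, in build GRCm38.p6, with each CpG in capitals. *Robo3* and *Epha7* were higher in dorsal DG, and *Efnb2* and *Plxnc1* in ventral DG.
Robo3, chr9:37433176-37433425, minus strand: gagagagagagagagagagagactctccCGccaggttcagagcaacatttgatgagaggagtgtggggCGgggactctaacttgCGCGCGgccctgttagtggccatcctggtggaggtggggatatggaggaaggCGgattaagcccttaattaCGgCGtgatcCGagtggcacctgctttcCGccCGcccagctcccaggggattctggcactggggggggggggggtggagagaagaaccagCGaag
Epha7, chr4:28812881-28813130, plus strand: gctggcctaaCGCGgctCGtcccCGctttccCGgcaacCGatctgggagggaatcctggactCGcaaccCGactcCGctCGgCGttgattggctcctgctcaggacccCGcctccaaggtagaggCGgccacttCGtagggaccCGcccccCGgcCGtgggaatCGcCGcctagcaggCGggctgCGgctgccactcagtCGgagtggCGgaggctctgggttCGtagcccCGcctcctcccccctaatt
Efnb2, chr8:8661243-8661492, minus strand: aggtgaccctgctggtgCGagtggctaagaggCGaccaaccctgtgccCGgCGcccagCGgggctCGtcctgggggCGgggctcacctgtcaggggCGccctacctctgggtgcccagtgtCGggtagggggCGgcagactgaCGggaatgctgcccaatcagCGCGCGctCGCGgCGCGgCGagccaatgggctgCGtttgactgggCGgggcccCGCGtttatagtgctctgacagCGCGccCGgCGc
Plxnc1, chr10:94944846-94945095, minus strand: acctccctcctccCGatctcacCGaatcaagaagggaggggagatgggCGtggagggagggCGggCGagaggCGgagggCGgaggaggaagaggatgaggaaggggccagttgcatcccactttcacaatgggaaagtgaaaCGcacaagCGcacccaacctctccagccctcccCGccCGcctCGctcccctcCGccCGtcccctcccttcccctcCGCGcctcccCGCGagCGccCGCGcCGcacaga
The stretch before *Robo3* had 12 CpG sites and 61.2% G and C, fewer than the 25 sites and 69.2% of *Epha7*, the 27 sites and 72.0% of *Efnb2* and the 22 sites and 68.8% of *Plxnc1*. RefSeq promoters of 300 bases (250 before and 50 after the start) were found for 57 guidance genes. Their median was 23 CpG sites, with 23 in the 21 genes higher in dorsal, 26 in the 12 higher in ventral and 20 in the 23 not called, against 19 in 15458 promoters of the genes tested. For each guidance gene only the promoter nearest the annotated gene start was taken, whereas the 15458 were not limited to 1 per gene. The E-box CAGATG (either strand) is of the kind bound by neuronal basic helix-loop-helix factors. It occurred in 2 of the 21, 1 of the 12 and 0 of the 23 promoters, and in 12.2% of promoters of the genes tested. A second E-box, CAGCTG, occurred in 4 of the 21, 1 of the 12 and 5 of the 23, and in 16.0%. These counts are descriptions of letters and not of binding.

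EphA receptors were higher at the dorsal pole where they were called. Of the 8 tested, 6 were higher in dorsal DG (*Epha4*, *Epha5*, *Epha6*, *Epha7*, *Epha8* and *Epha10*), against 15.9% of all tested genes. None was higher in ventral DG (16.8% of all), and the median log2 fold change was 0.71. *Epha7* (chromosome 4, 28813131 to 28967499, GRCm38) lay between 363 and 431 CPM in the dorsal samples (median 404) and between 141 and 190 CPM in the ventral samples (median 160), a log2 fold change of 1.31 ± 0.06 (FDR = 1.49e-14). *Epha5* ranged from 145 to 190 CPM (median 173) in dorsal and from 66.4 to 83.2 CPM (median 77.9) in ventral samples, a change of 1.17 ± 0.05 (FDR = 4.97e-15). In every pool the dorsal sample held at least 1.87 times the *Epha5* of its ventral partner. *Epha4* ranged from 731 to 886 CPM (median 849) against 368 to 510 CPM (median 448), a change of 0.90 ± 0.06 (FDR = 1.03e-11).

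For these 3 receptors no dorsal sample came down to the ventral range. *Epha6* (0.55 ± 0.04) and *Epha10* (0.28 ± 0.05) moved the same way by less, also without overlap. *Epha8* was rare, between 1.84 and 4.35 CPM in dorsal and between 1.37 and 2.14 CPM in ventral samples. Its change was 0.87 ± 0.14 (FDR = 1.73e-05), and the regions overlapped across housings, although dorsal was higher within each of the 9 pools. *Epha3* (0.12 ± 0.04) and *Epha2* (0.03 ± 0.10) were not called. The granule cell markers moved in the same direction as these receptors (*Dsp* by 1.47 ± 0.07, *Stxbp6* by 0.97 ± 0.06), as did 5 of the 6 immature neuron markers, and their part was not tested.

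Among the EphB receptors, which bind mainly the transmembrane ephrin-B ligands, members went in both directions. *Ephb1* ranged from 41.0 to 51.7 CPM in dorsal (median 45.2) and from 25.4 to 31.0 CPM in ventral samples (median 28.0), a change of 0.72 ± 0.04 (FDR = 5.15e-12). *Ephb2*, which clusters NMDA receptors at synapses, ranged from 37.2 to 45.8 CPM (median 42.3) against 23.1 to 30.0 CPM (median 28.3), a change of 0.65 ± 0.05 (FDR = 8.77e-11). Both lay higher in every dorsal sample. *Ephb2* and *Epha8* both lie on chromosome 4 (136647539 to 136835988 and 136929419 to 136956816). *Ephb6*, whose kinase domain is inactive, was the opposite, with 46.1 to 56.1 CPM in dorsal (median 53.1) and 72.1 to 85.6 CPM in ventral samples (median 76.4), a change of -0.62 ± 0.04 (FDR = 2.24e-12). *Ephb3* differed by -0.26 ± 0.05 (FDR = 0.000134), just under the 20% limit, and *Ephb4* by 0.09 ± 0.08.

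Ephrins were called on both sides. Of 8 tested, 3 were higher in ventral DG (*Efnb2*, *Efnb1* and *Efna3*), against 16.8% of all tested genes. In dorsal DG 1 was higher (*Efna5*), against 15.9% of all tested genes, and 4 were not called. *Efnb2* (chromosome 8, 8617434 to 8661242) ranged from 7.66 to 10.7 CPM in the dorsal samples (median 9.75) and from 17.8 to 22.7 CPM in the ventral samples (median 21.2), a change of -1.11 ± 0.06 (FDR = 2.90e-13). The lowest ventral sample was thus well above the highest dorsal one. *Efnb2* is also a marker of arterial endothelium. The endothelial marker list summed to 155 to 181 CPM in dorsal and 149 to 187 CPM in ventral samples, with none of its 5 genes called. Of the 6 mural and meningeal markers, 2 were higher in ventral and 0 in dorsal DG. The part of vascular cells in the values of *Efnb2* was not tested. *Efna3*, which is tethered to the membrane by a lipid anchor, ranged from 33.8 to 44.5 CPM (median 36.7) against 46.7 to 54.6 CPM (median 52.4), a change of -0.47 ± 0.04 (FDR = 1.22e-09). *Efna3* lies between *Efna1* and *Efna4* on chromosome 3, and neither of these was called (0.02 ± 0.07 and -0.26 ± 0.20). *Efnb1* changed by -0.33 ± 0.06, and *Efna5* by 0.45 ± 0.12 at 0.951 to 2.32 CPM over all samples. For both, the dorsal and ventral ranges overlapped. *Efnb1* was not called in SH alone (-0.23 ± 0.09, FDR = 0.0513), nor *Efna5* in EE alone (0.37 ± 0.16, FDR = 0.0595). *Efnb3*, the most abundant ephrin, was not called (-0.08 ± 0.03, FDR = 0.0537).

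**Figure D3:**
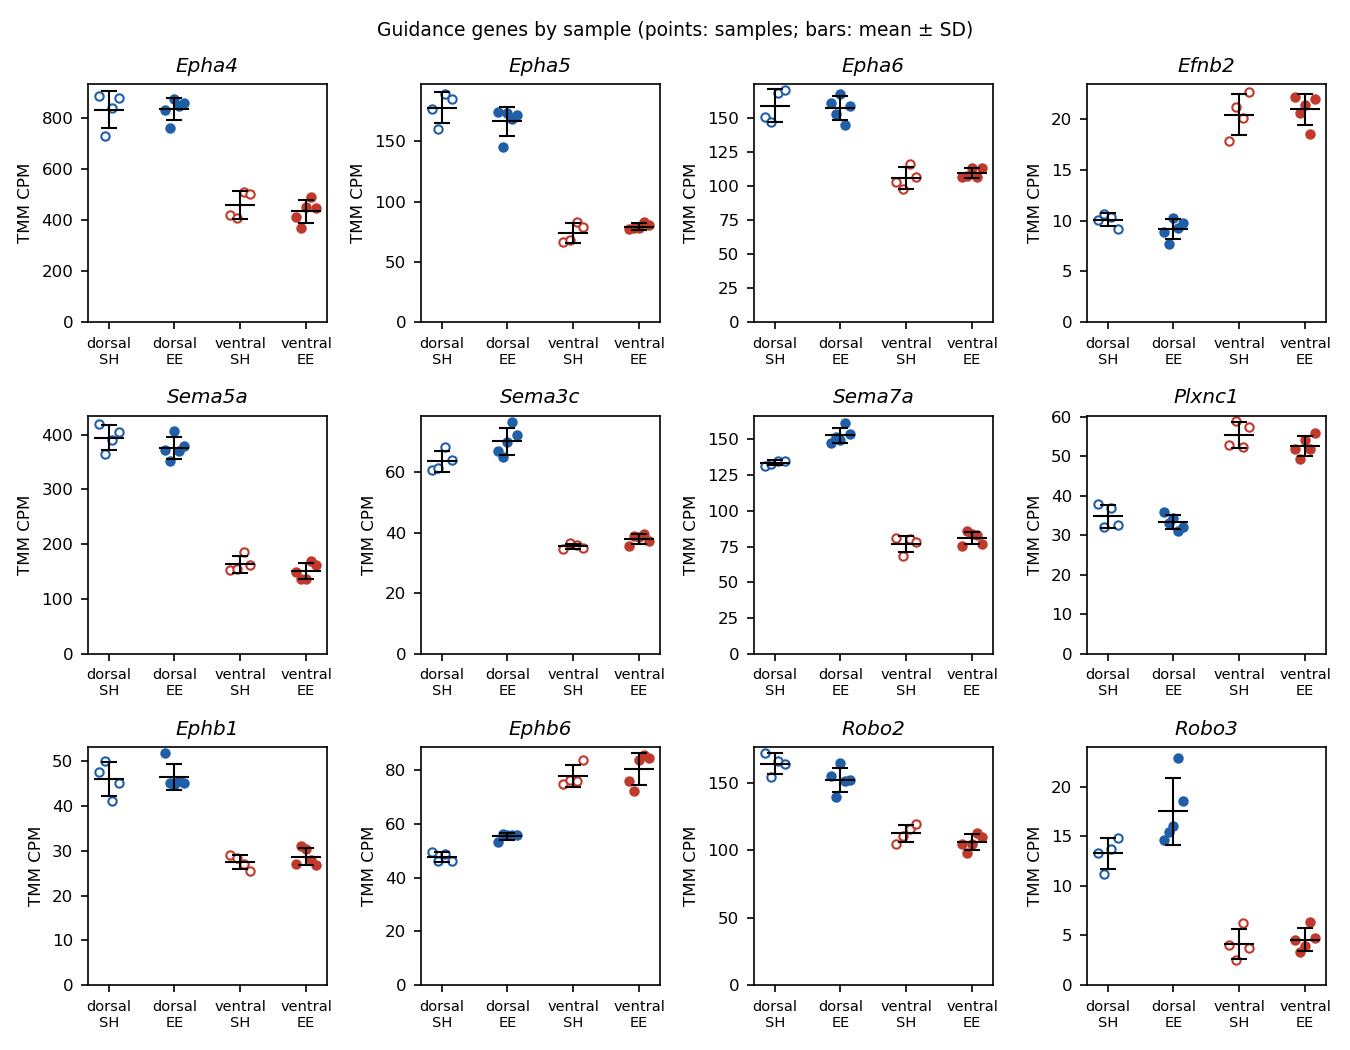
CPM of 12 guidance genes in each of the 18 samples (points) with group mean ± SD (bars), dorsal in blue and ventral in red, SH open and EE filled, each axis starting at 0. In all 12 panels the dorsal and ventral points are separated, with *Efnb2*, *Plxnc1* and *Ephb6* higher in ventral and the other 9 higher in dorsal DG.

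Secreted class 3 semaphorins split by member. *Sema3a*, a repellent for many axons, and *Sema3c* were higher in dorsal DG, and *Sema3b*, *Sema3d*, *Sema3e* and *Sema3f* in ventral DG. *Sema3c* ranged from 60.8 to 76.6 CPM in dorsal (median 67.2) and from 34.6 to 39.7 CPM in ventral samples (median 36.6), a change of 0.87 ± 0.04 (FDR = 6.31e-15). *Sema3a* ranged from 2.01 to 3.83 CPM (median 3.36) against 1.16 to 1.99 CPM (median 1.46), a change of 1.02 ± 0.12 (FDR = 1.60e-07). The lowest dorsal *Sema3a* value only just cleared the highest ventral one. *Sema3a*, *Sema3c*, *Sema3d* and *Sema3e* all lie within a stretch of chromosome 5 (12383385 to 17730268), where the first 2 were higher in dorsal and the other 2 in ventral DG (-0.45 ± 0.07 for *Sema3d* and -0.33 ± 0.08 for *Sema3e*). *Sema3e*, the ligand of *Plxnd1*, fell below the 20% limit without dorsal SH replicate 1, ventral SH replicate 5 and ventral EE replicate 3 (-0.25 ± 0.08), each of which had the largest choroid plexus marker sum of its own group.

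*Sema3b* differed most among the ventral-high semaphorins. It ranged from 1.12 to 1.83 CPM in dorsal (median 1.33) and from 2.01 to 4.43 CPM in ventral samples (median 2.51), a change of -0.94 ± 0.15 (FDR = 1.00e-05). The highest ventral values, 4.43 CPM in EE replicate 3 and 3.43 CPM in SH replicate 5, were in the samples with the largest choroid plexus marker sums (1469 and 1135 CPM), and the highest dorsal value, 1.83 CPM in SH replicate 1, was in the dorsal sample with the largest sum (217 CPM). Without these 3 libraries the change was -0.81 ± 0.11 (FDR = 2.92e-06). The remaining dorsal samples had sums of at most 73.2 CPM and the remaining ventral samples of at least 400 CPM. Region and choroid plexus RNA thus stayed linked in this fit, and the part of choroid plexus in the values of *Sema3b* was not tested. *Sema3f*, which like *Sema3b* lies on chromosome 9, changed by -0.50 ± 0.13. It was rare, at 0.707 to 1.28 CPM in dorsal and 0.977 to 1.81 CPM in ventral samples, and these ranges overlapped. *Sema3g* differed by -0.04 ± 0.07 and was not called.

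**Figure D4:**
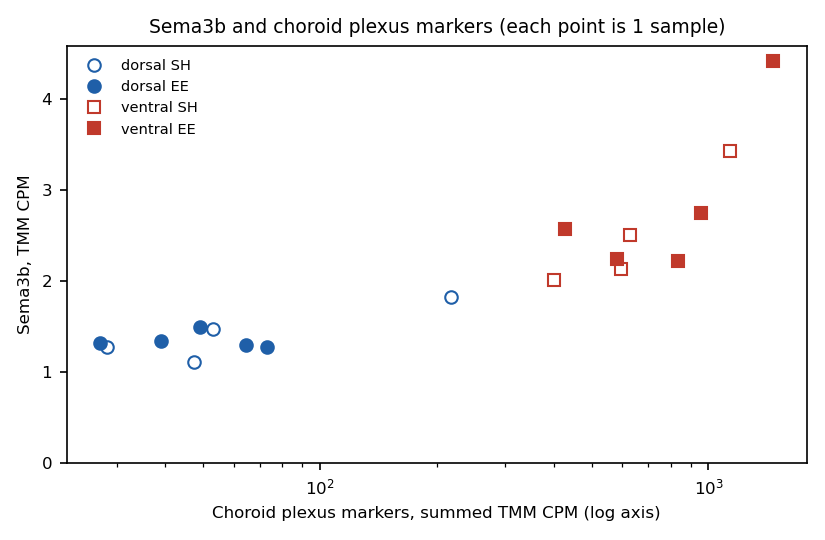
CPM of *Sema3b* against the summed CPM of 10 choroid plexus markers (log axis), with 1 point per sample, circles for dorsal and squares for ventral DG, SH open and EE filled. *Sema3b* is highest, at 4.43 CPM, in the sample where the marker sum is 1469 CPM.

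The membrane-bound semaphorins of classes 5, 6 and 7 were higher in dorsal DG wherever they were called. *Sema5a*, which acts as attractant or repellent depending on the proteoglycans around it, ranged from 352 to 420 CPM in dorsal (median 379) and from 137 to 185 CPM in ventral samples (median 154), a change of 1.30 ± 0.05 (FDR = 1.88e-15). Its relative *Sema5b* ranged from 22.9 to 31.8 CPM (median 26.6) against 9.84 to 12.7 CPM (median 11.0), also a change of 1.30 ± 0.05 (FDR = 7.50e-16). The 2 class 5 genes are on different chromosomes (15 and 16). *Sema7a* ranged from 131 to 162 CPM in dorsal (median 148) and from 68.5 to 85.7 CPM in ventral samples (median 80.0), a change of 0.86 ± 0.04 (FDR = 6.81e-15). In class 6, *Sema6d* (0.58 ± 0.03) and *Sema6c* (0.52 ± 0.05) were higher in dorsal DG, whereas the more abundant *Sema6b* (-0.08 ± 0.03) and *Sema6a* (-0.09 ± 0.06) were not called. Class 4 was mixed, with *Sema4c* higher in dorsal (0.44 ± 0.05), *Sema4g* (-0.61 ± 0.06) and *Sema4a* (-0.29 ± 0.05) higher in ventral DG and 3 members not called, among them *Sema4f* (0.00 ± 0.05). The *Sema4a* call was lost without the 3 libraries with the largest choroid plexus sums of their groups (-0.25 ± 0.06). *Sema4g* ranged from 5.32 to 7.40 CPM in dorsal and from 8.06 to 10.5 CPM in ventral samples, without overlap.

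Of the 9 plexins, 3 were higher in dorsal DG (*Plxna4*, *Plxna2* and *Plxnd1*) and 2 in ventral DG (*Plxnc1* and *Plxnb1*). *Plxna4*, a receptor for class 3 and class 6 semaphorins, ranged from 408 to 502 CPM in dorsal (median 457) and from 228 to 307 CPM in ventral samples (median 263), a change of 0.77 ± 0.05 (FDR = 5.19e-11). *Plxna2* changed by 0.46 ± 0.05 and *Plxnd1* by 0.38 ± 0.05. The call of *Plxnb1* was lost without EE replicate 5 (-0.26 ± 0.06). *Plxnc1* (chromosome 10, 94790866 to 94944835) is the plexin that binds *Sema7a*, and it went the other way from its ligand. It ranged from 31.2 to 37.8 CPM in dorsal (median 33.0) and from 49.4 to 58.8 CPM in ventral samples (median 52.8), a change of -0.66 ± 0.04 (FDR = 5.36e-12). *Plxna1* differed by -0.19 ± 0.06 (FDR = 0.00871) and did not pass the 20% limit, with 93.1 to 113 CPM in dorsal and 102 to 149 CPM in ventral samples. The class 3 co-receptor *Nrp1* (chromosome 8, 128358604 to 128503363) ranged from 140 to 169 CPM in dorsal (median 156) and from 154 to 216 CPM in ventral samples (median 189), a change of -0.27 ± 0.05 (FDR = 0.000108). The regions overlapped, and the change of *Nrp1* lay close to the limit: it was not called without SH replicate 2 (-0.26), SH replicate 5 (-0.25) or EE replicate 5 (-0.26), nor without the 3 libraries with the largest choroid plexus sums of their groups (-0.24). *Nrp2* differed by 0.11 ± 0.05 and was not called.

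Robo receptors were dorsal where they differed, and the Slits split. *Robo3*, a divergent Robo known for letting commissural axons cross the midline, had the largest fitted fold change of the 66 guidance genes. It ranged from 11.2 to 23.0 CPM in the dorsal samples (median 14.9) and from 2.55 to 6.34 CPM in the ventral samples (median 4.06), a log2 fold change of 1.81 ± 0.13 (FDR = 5.98e-11). Dorsal samples held 2.20 to 4.61 times the *Robo3* of their ventral partners. The habenula and thalamus lie beneath the dorsal hippocampus. Of their markers, *Gpr151* (2.23 ± 0.60) and *Prkcd* (2.32 ± 0.08) were higher in dorsal DG. Not called between the regions were *Tac2* (-0.20 ± 0.24), *Chrna3* (-0.02 ± 0.29), *Tcf7l2* (0.22 ± 0.14) and *Gbx2* (-0.09 ± 0.32). *Chrnb4* was too low to be tested. Between EE and SH in dorsal DG, *Robo3* differed by 0.40 ± 0.16 (FDR = 0.408). The scarce markers *Tac2* (1.19, FDR = 0.147), *Gpr151* (1.74, FDR = 0.322), *Gbx2* (1.37, FDR = 0.282) and *Chrna3* (0.97, FDR = 0.497) had positive differences. *Tcf7l2* (-0.03, FDR = 0.982) and the more abundant *Prkcd* (0.01, FDR = 0.988) differed little. None of these genes, *Robo3* included, was called. The part of these markers in the values of *Robo3* was not tested.

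*Robo2* ranged from 139 to 172 CPM in dorsal (median 155) and from 97.6 to 119 CPM in ventral samples (median 109), a change of 0.53 ± 0.04 (FDR = 6.64e-11). *Robo1* (0.21 ± 0.04) did not pass the 20% limit. *Robo4*, an endothelial Robo that lies next to *Robo3* on chromosome 9, was not called (0.10 ± 0.07). *Slit1* ranged from 241 to 284 CPM in dorsal (median 259) and from 185 to 252 CPM in ventral samples (median 201), a change of 0.29 ± 0.05 (FDR = 7.53e-05), and the call was lost without SH replicate 1 (0.25). *Slit2* changed in the other direction (-0.48 ± 0.08, FDR = 3.69e-05), with 33.7 to 49.98 CPM in dorsal and 46.5 to 70.7 CPM in ventral samples. *Slit3* differed by 0.17 ± 0.04 and was not called.

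None of the 2 netrins and 5 netrin receptors was called between the regions by edgeR or by DESeq2, against 32.7% of all tested genes by edgeR. *Unc5b* and *Unc5c* had FDR under 0.05 with changes under 20%. The log2 fold changes of the netrins and netrin receptors lay between -0.15 and 0.17. *Unc5b* was called higher in dorsal DG (0.27 ± 0.04, FDR = 2.04e-05) when the 3 libraries with the largest choroid plexus sums of their groups were left out. *Unc5a*, the most abundant, ranged from 104 to 123 CPM in dorsal and from 100.1 to 113 CPM in ventral samples (0.07 ± 0.03, FDR = 0.0762), and *Dcc* from 24.4 to 31.1 CPM against 24.9 to 33.1 CPM (-0.07 ± 0.05, FDR = 0.226).

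The regional differences were present in each housing. In SH 33 of the 66 guidance genes were called (28.3% of all tested genes) and in EE 35 (29.8% of all), 29 of them in both with the same direction, 4 in SH only and 6 in EE only. No guidance gene had a dorsal to ventral difference that itself differed between the housings in edgeR, as given below. *Efnb2* changed by -1.02 ± 0.09 in SH and -1.19 ± 0.08 in EE, *Robo3* by 1.69 ± 0.19 and 1.92 ± 0.17, *Sema5b* by 1.38 ± 0.07 and 1.22 ± 0.06, and *Epha5* by 1.27 ± 0.07 and 1.07 ± 0.06. In the left-out SH pool *Epha7* was at 374 CPM dorsally and 160 CPM ventrally, *Efnb2* at 9.59 and 20.5 CPM, and *Robo3* at 12.1 and 3.25 CPM. With this pool included, 39 guidance genes were called between the regions.

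Other genes of the pathway were counted against the same background of all tested genes, 15.9% called higher in dorsal and 16.8% in ventral DG. Of 20 receptor partners and adhesion molecules, 6 were called higher in dorsal DG and 4 in ventral DG (median 0.15), and of 49 cytoplasmic signaling proteins 8 were called higher in dorsal DG and 6 in ventral DG (median 0.07). Among the partners *Ntng1*, a lipid-anchored netrin relative, was higher in dorsal DG (0.89 ± 0.05), as was *Draxin*, which binds netrin and *Dcc* (0.78 ± 0.10). *Ntn5* was much higher in ventral DG (-3.02 ± 0.11, FDR = 3.75e-16), unlike the netrins above, and *Met*, the receptor of hepatocyte growth factor, was as well (-1.44 ± 0.16). Among the signaling proteins the Rac activators *Tiam1* (1.08 ± 0.05), *Vav3* (0.72 ± 0.04) and *Tiam2* (0.56 ± 0.05) were higher in dorsal DG. *Grip1*, a scaffold that binds Eph receptors and ephrin-B (-0.48 ± 0.03), and *Limk1*, which phosphorylates cofilin (-0.43 ± 0.04), were higher in ventral DG.

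The comparison of EE with SH asks what housing did in each region. In dorsal DG 1 guidance gene was called, *Sema5b*, against 0.634% of all tested genes. Its level was 29.4, 28.2, 31.3 and 31.8 CPM in the 4 dorsal SH samples and 26.6, 24.0, 25.8, 23.5 and 22.9 CPM in the 5 dorsal EE samples. All EE values lay below all SH values. The change was -0.30 ± 0.06 on the log2 scale (FDR = 0.0183). In ventral DG the *Sema5b* values were 10.2, 11.3, 12.2 and 12.7 CPM in SH and 10.5, 11.1, 9.84, 11.1 and 10.3 CPM in EE, a difference of -0.14 ± 0.07 that was not called (FDR = 0.688). The dorsal *Sema5b* call was lost (FDR of 0.0619 to 0.102) when SH replicate 4, SH replicate 5, EE replicate 4 or EE replicate 5 was left out, with changes of -0.28, -0.27, -0.28 and -0.27, and when all 20 samples were used (-0.25, FDR = 0.0511). In the alternatives run its FDR lay between 0.00255 and 0.102.

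A further 2 genes were near the threshold in dorsal DG. The 4 SH samples held 131, 133, 135 and 135 CPM of *Sema7a*, the 5 EE samples 148, 152, 150, 162 and 154 CPM, a difference of 0.20 ± 0.05 (FDR = 0.0753). Of *Ephb6* the SH samples held 49.5, 46.1, 48.9 and 46.1 CPM, the EE samples 53.1, 56.1, 55.7, 56.0 and 55.9 CPM, a difference of 0.22 ± 0.05 (FDR = 0.0528). For both genes each EE value exceeded each SH value, the change was under 20%, and neither was called. In all, the dorsal EE and SH ranges of 6 guidance genes did not overlap (3.99% of all tested genes): *Sema5b* and *Sema4c* with EE lower, and *Sema7a*, *Ephb6*, *Efna1* and *Unc5b* with EE higher. An unadjusted p under 0.05 was found for 13 of the 66 (19.7%) against 8.81% of all tested genes.

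In ventral DG no guidance gene was called by edgeR (0.241% of all tested genes were). An unadjusted p under 0.05 was found for 3 of the 66 (4.55%) against 7.58% of all tested genes. DESeq2, and edgeR without the low-count filter or with a block by replicate number, called 1, *Plxnd1*. The SH samples held 13.5, 16.4, 13.3 and 14.4 CPM of *Plxnd1*, the EE samples 17.5, 19.5, 17.7, 16.3 and 18.8 CPM, a difference of 0.31 ± 0.08 (FDR = 0.106). The lowest EE value was below the highest SH value, SH replicate 2. *Plxnd1* was called without SH replicate 2 (0.38, FDR = 0.0296) with DESeq2 (0.31, FDR = 0.0263) and without the low-count filter (0.31, FDR = 0.0372), and its FDR in the alternatives run reached 0.481. The next genes by p were *Sema4f* (-0.18 ± 0.07, FDR = 0.442) and *Efna2* (-0.25 ± 0.11, FDR = 0.644). No guidance gene had ventral EE and SH ranges that did not overlap, against 2.45% of all tested genes.

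The EE effect was not shown to differ between the regions for any guidance gene. The interaction called 0 of 66 in edgeR and in DESeq2 (0.00587% of all tested genes, 1 gene, was called by edgeR). An unadjusted p under 0.05 was found for 4 of the 66 (6.06%) against 3.25% of all tested genes. The smallest p belonged to *Ephb3*, where EE minus SH was -0.16 ± 0.07 in dorsal and 0.13 ± 0.07 in ventral DG (difference -0.29 ± 0.10, FDR = 1.00), and to *Plxnd1* (difference -0.27 ± 0.10, FDR = 1.00).

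**Figure D5:**
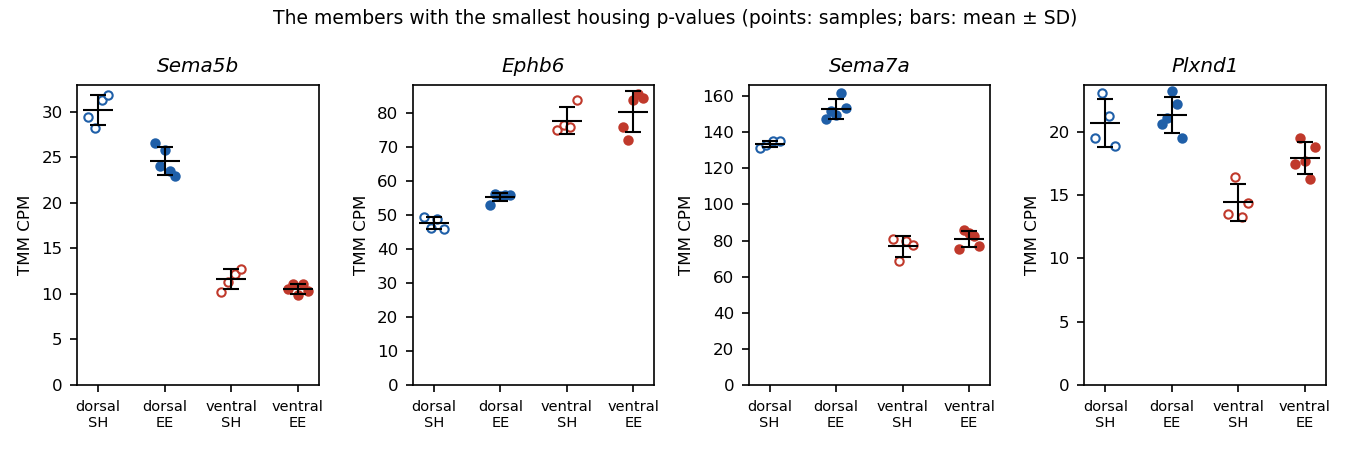
CPM of the 4 guidance genes with the smallest p-values for housing, in each of the 18 samples (points) with group mean ± SD (bars), SH open and EE filled, dorsal in blue and ventral in red, each axis starting at 0. In dorsal DG the *Sema5b* points of EE lie below those of SH and the *Ephb6* and *Sema7a* points lie above, while the ventral *Plxnd1* points of EE overlap SH.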

How the data were processed

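RNA-Seq libraries (TruSeq Stranded total RNA, paired-end) of 20 samples were used, and 18 entered the main tests. Per the submitters' processing notes, the authors trimmed reads with Trim Galore 0.4.0, mapped them to mm10 with STAR 2.5.1b and estimated abundance with RSEM 1.2.30. The authors deposited raw counts per gene for each strand, of which the reverse-strand column was used, and RSEM expected counts, TPM and FPKM per gene. TPM served only to compare genes. Rows that name no gene, 32.6% to 40.9% of fragments in the 18 samples, were left out.

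Counts were fitted in edgeR 4.0.16 (TMM, quasi-likelihood, 4 group means) and p-values were adjusted by Benjamini-Hochberg over 17040 genes. The regional difference is the mean of the dorsal minus ventral differences of both housings. Alternatives were DESeq2 1.42.0, other filters, scalings and count columns, a pool or replicate block and leaving out each pool. The code was tested on simulated data. The 2 samples of a pool share mice, and their deviations from the group means correlated by 0.0827 on average (-0.0840 to 0.189 over 9 pools).

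Genes, lists and tests were chosen with earlier results of these data known. Described in full are the 5 genes *Epha7*, *Efnb2*, *Sema3a*, *Plxna1* and *Nrp1*, genes called at 1.5-fold or more between regions, the most abundant gene of each family, the genes called or among the 3 smallest p for housing in each region, and those with the 2 smallest interaction p; examples from other members were added. Methylation samples were not analysed here.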

Additional observations from a re-analysis of the deposited data

Results flagged for a closer look

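Among 128 groups of 4 or 5 samples (32 guidance genes in 4 groups), 13 held a sample that stood apart from the others by Dixon's criterion, and chance alone flags about 1 in 20 groups. In dorsal SH, replicate 2 was lowest for *Plxna1* (98.0 CPM, next 105) and *Nrp1* (140 CPM, next 167), replicate 1 was highest for *Unc5a* (114 CPM, next 105) and replicate 5 was lowest for *Ntn4* (6.11 CPM, next 7.30). In dorsal EE, replicate 2 was lowest for *Epha5* (145 CPM, next 169) and *Sema3e* (54.0 CPM, next 66.1) and highest for *Sema6b* (138 CPM, next 129). Replicate 1 was highest for *Ephb1* (51.7 CPM, next 45.6) and lowest for *Ephb6* (53.1 CPM, next 55.7), replicate 3 was highest for *Unc5a* (123 CPM, next 113), and replicate 5 was highest for *Sema3b* (1.503 CPM, next 1.346). In ventral samples, EE replicate 3 was highest for *Sema3b* (4.43 CPM, next 2.76), and this sample had the largest choroid plexus marker sum, 1469 CPM. In ventral SH, replicate 5 was highest for *Ephb6* (83.8 CPM, next 76.4). Replicate 2 of dorsal EE and of dorsal SH together gave 5 of the 13.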

How the results depend on the processing

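The count of 37 guidance genes called between the regions lay between 31 (genes over 1 TPM in at least 3 samples, which tested fewer genes) and 49 (no fold limit). It was 37 with DESeq2, RLE scaling, no low-count filter, expected counts and the joint test of both housings, 38 with unstranded counts, and 35 to 38 when pools were left out one at a time. Without dorsal SH replicate 1, ventral SH replicate 5 and ventral EE replicate 3, an alternative chosen after seeing the data, it was 35. The pool block gave 37, in SH 34 and in EE 36, and changed no call of a named gene between the regions.

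For housing in dorsal DG, the count of 1 became 0 with all 20 samples, 2 with a replicate block (*Robo3* beside *Sema5b*) and 0 to 1 when pools were left out one at a time. In ventral DG the count of 0 became 1 with DESeq2, 1 without the low-count filter, 1 with the replicate block (*Plxnd1* in each) and 0 to 1 when pools were left out one at a time. Same-numbered SH and EE pools share only a number (mean correlation 0.126, 7 of 8 over 0.1), so this block is no pairing by design. The interaction stayed at 0 in the alternatives run. Over 37 named values and 20 alternatives, 707 of 729 recomputed values kept direction and side of the threshold, 11 lost a call, 6 gained one, 5 changed sign without a call, all of *Sema4f* between the regions, and no called value reversed. The cause of these shifts was not tested. The values of *Sema3a*, *Sema3b*, *Sema3f*, *Epha2*, *Epha8*, *Efna4* and *Efna5*, all under 1 TPM, rest on at most 113 counts per sample, which limits their precision. Other tested guidance genes under 1 TPM had more counts, such as *Robo3* with up to 563.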
